A study of Mus musculus with 4 samples.

Results

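The comparison described here is the difference between 2 fructose effects: the change with fructose in hepatocytes lacking ChREBP minus the change with fructose in wild-type hepatocytes. It uses all 4 arrays of the series, 1 array per group, and gives 1 value per gene, the log2 difference (KO fructose minus KO control) minus (WT fructose minus WT control). Of the 22180 genes with a value, 11050 lay above background on at least 1 array and were compared. The groups were primary hepatocytes of 2-month-old male mice, wild type (WT) or Chrebp-KO (KO), held for 16 h without serum, either with 25 mM fructose or without it (control). Nothing says whether the cells of a group came from 1 mouse or several, and which part of the ChREBP gene was deleted is not stated. A single array stands for each group, so no test was possible and every statement is about these 4 arrays.

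ChREBP, encoded by Mlxipl, is a transcription factor that is activated by products of sugar metabolism. It binds DNA together with its partner Mlx at carbohydrate response elements, which are pairs of E-box-like sequences, and raises the expression of glycolytic, fructolytic and lipogenic genes in liver. Fructose enters hepatocytes largely through glucose transporter 2 (Slc2a2) and is broken down by ketohexokinase (Khk), aldolase B and triokinase (Tkfc).

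All 11 measured hepatocyte markers were detected, and albumin (Alb) had log2 levels between 12.58 and 12.66 on the 4 arrays. Of the listed markers of other cells, 16 of 20 Kupffer cell and macrophage, 12 of 17 sinusoidal endothelial, 4 of 14 cholangiocyte, 5 of 14 stellate and 2 of 15 lymphocyte and neutrophil markers were detected. The defining markers Krt7, Krt19 and Epcam of cholangiocytes, Lrat and Des of stellate cells, Cd3e and Cd79a of lymphocytes and S100a8 and S100a9 of neutrophils were below background on all 4 arrays. The summed linear level of the Kupffer and macrophage markers was 5087 and 5082 on the WT control and fructose arrays and 4530 and 5430 on the KO arrays, and that of the endothelial markers was 1255, 1114, 915 and 871 in the same order. Cd68 and Cd14, at log2 levels between 10.65 and 11.22, dominated the first of these sums. The median log2 level of the Kupffer and macrophage markers was 5.55 and 5.75 in WT and 5.22 and 5.27 in KO. Cd68 was higher in KO than in WT in both media, and Cd14 and Lyz2 were so in fructose medium only. The other detected markers of this list, among them C1qb, Fcgr1, Marco and Timd4, were lower in KO in both media. In such mixed RNA, fewer cells of a type and less RNA per cell cannot be told apart. Mlxipl itself had log2 levels of 8.08 and 8.43 in WT control and fructose and 7.42 and 7.37 in KO. It was well above background on both KO arrays, so this probe set is a limited check of the genotype.

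The fructose response differed between the genotypes by at least 2-fold in 114 genes. Most of these were within 1.5-fold between the genotypes in control medium, but a lower share than of all genes. The difference of effects was at or under -1 in 65 genes, 0.588% of those compared, and at or above 1 in 49 genes, 0.443%. All 4 arrays were above background for 44 of the 65 and 35 of the 49. With values below background raised to it, 52 of the 65 and 38 of the 49 still passed 2-fold. It ranged from -3.51 (Fgf21) to 2.16 (Foxn1), with a median of 0.03, and 45.0% of genes lay below 0. Of the 65 genes, 58 (89.2%) were within 1.5-fold between the genotypes in control medium and 49 were at least 2-fold apart in fructose medium. Of the 49 genes, 41 (83.7%) were within 1.5-fold in control medium and 29 were at least 2-fold apart in fructose medium. Over all genes compared, 98.4% were within 1.5-fold in control medium and 94.8% in fructose medium. The difference of effects equals the genotype difference in fructose medium less that in control medium. Genes chosen by it that are close in control medium are therefore bound to be apart in fructose medium.

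The size of technical scatter can be read from genes that carry no signal and from genes measured more than once. Olfactory receptor genes, which hepatocytes are not known to express, had an SD of the difference of effects of 0.24, and 5 of 1105 (0.452%) passed 2-fold in either direction, against 1.03% of the genes compared. Of the 9786 genes above background on all 4 arrays, 0.807% passed 2-fold, and of the 1264 others 2.77%. In 294 genes with at least 2 probe sets above background, the probe sets differed in the value by a median of 0.24 and by 0.82 at the 95th percentile. Fabp5, a fatty acid-binding protein, was the 1 gene past 2-fold with several such probe sets, 3 of its 4, and these gave -1.27, -1.25 and -1.25. These values hold no error between cultures. Close to the threshold, Siah2 (-1.0007) and Cyp4f15 (-1.0016) were just inside on the lower side, and Prr5 (-0.9969) and Rpia (-0.9974) just outside. On the upper side Nuak2 (1.0032) and Tgm1 (1.0158) were inside, and Rab7b (0.993) and Arg2 (0.9959) outside.

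Each gene that changed at least 2-fold with fructose in WT was placed in a class by what it did in KO. In WT, 335 genes (3.03%) were at least 2-fold higher with fructose and 326 (2.95%) at least 2-fold lower. In KO the corresponding numbers were 181 (1.64%) and 128 (1.16%). A response was called lost when the KO change was under 1.5-fold and differed from the WT change by at least 2-fold, and reduced when it went the same way, was at least 1.5-fold, and fell short of the WT change by at least 2-fold. It was called kept when both changes were at least 2-fold the same way and within 2-fold of each other, reversed when the KO change was at least 1.5-fold the other way, and in between otherwise. A gained response was under 1.5-fold in WT, at least 2-fold in KO and at least 2-fold different.

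Of the 335 higher genes, 124 (37.0%) were kept, 152 (45.4%) in between, 31 (9.25%) lost, 25 (7.46%) reduced, 2 (0.597%) reversed and 1, Muc13, was larger in KO. Of the 326 lower genes, 101 (31.0%) were kept, 201 (61.7%) in between, 14 (4.29%) reduced, 10 (3.07%) lost and 0 reversed. Gained responses were seen in 11 genes, all toward higher levels. The direction was shared by most genes, including those counted as reduced or in between: the KO change was above 0 in 324 of the 335 higher genes and below 0 in 321 of the 326 lower genes. The WT change enters both the choice of these genes and the difference of effects, which tilts the difference toward a smaller KO change. When genes were chosen instead by the mean change of both genotypes, 215 were at least 2-fold higher, and the KO change was the smaller in 162 of them (75.3%), at a median of 78.0% of the WT change. Among the 180 genes chosen as lower in this way it was the smaller in 152 (84.4%), at a median of 79.7%. Over all genes compared, the SD of the WT change was 1.29 times that of the KO change.

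**Figure D1:**
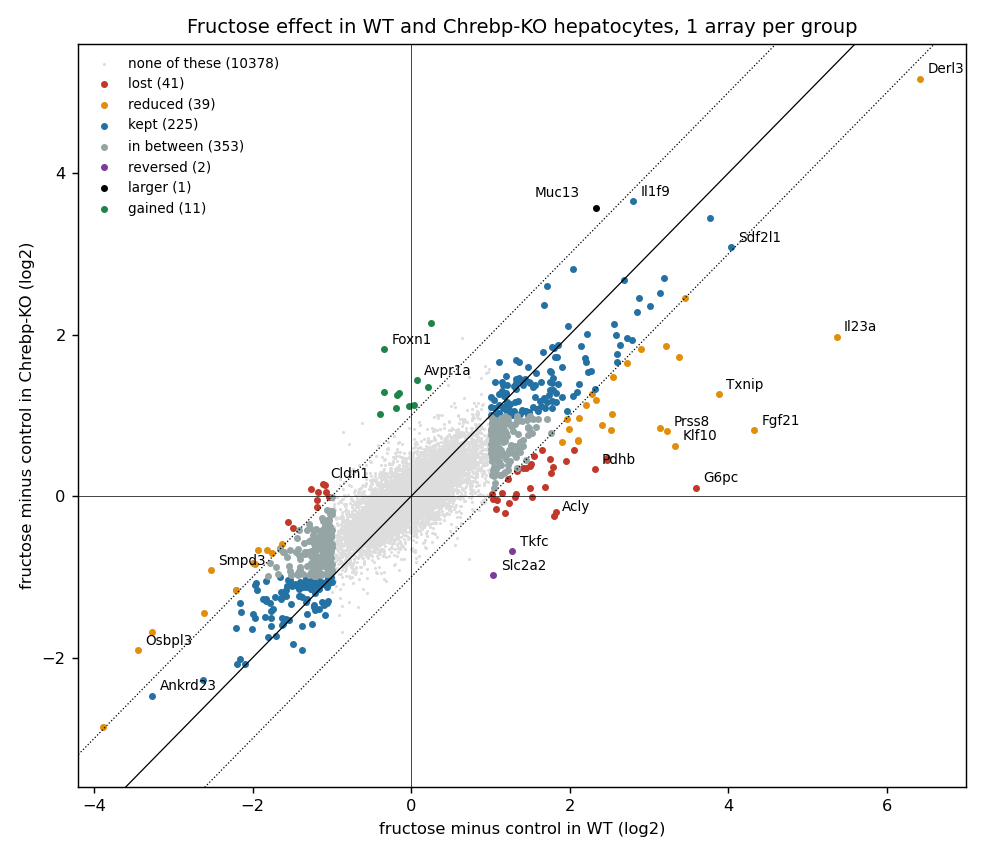
Change with fructose in WT (horizontal, log2) against that in Chrebp-KO (vertical, log2) for the 11050 genes compared, 1 point per gene, coloured by class. The solid line marks equal changes and the dotted lines a 2-fold difference; Fgf21, Il23a and G6pc lie farthest below the lines and Foxn1 farthest above.

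The largest lost response was that of G6pc, the gene of the catalytic subunit of glucose-6-phosphatase, the last step of glucose release. Its log2 level was 4.77 in WT control and 8.37 in WT fructose, and 4.48 and 4.59 on the KO arrays, both below the background of 4.764. The WT fructose array alone was clearly above background, 12.1-fold over WT control, and the difference of effects was -3.49. Slc37a4, the transporter that feeds glucose 6-phosphate to this enzyme, had changes of 0.92 in WT and 0.16 in KO. Pck1, which encodes the cytosolic phosphoenolpyruvate carboxykinase of gluconeogenesis, had a larger change in KO (1.61 against 0.93). G6pc was the 1 lost gene among 16 detected members of the gluconeogenesis and glucose output list (0.281% of all genes were lost higher). The list's median difference of effects was 0.02, with 8 members below 0 (45.0% of all genes were).

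Acly, Acaca and Fasn encode successive enzymes that turn citrate into fatty acids. Acly had log2 levels of 8.89 and 10.69 in WT control and fructose and 8.74 and 8.49 in KO. Acaca had 6.34 and 8.16 in WT and 6.37 and 6.17 in KO. Fasn had 7.37 and 9.13 in WT and 7.16 and 7.45 in KO. For all 3 genes the WT fructose array was the high one and the other 3 arrays lay close together. The WT changes were 3.50-fold, 3.54-fold and 3.39-fold, and the differences of effects were -2.06, -2.02 and -1.47. Over the 17 detected members of the de novo lipogenesis list, the median change was 0.77 in WT and 0.08 in KO, the median difference of effects was -0.59, and 16 members lay below 0, against 45.0% of all genes. Mid1ip1, which promotes polymerisation of acetyl-CoA carboxylase (1.06 in WT, 0.17 in KO), Me1, the cytosolic malic enzyme (0.84 and 0.06), and Elovl6, a fatty acid elongase (0.77 and 0.04), followed the same pattern of changes under the 2-fold threshold. Elovl3, another elongase, did not: its changes were 1.82 and 1.73. Me1 was already lower in KO in control medium, at a log2 level of 8.96 against 9.59 in WT. Scd1, Fads1 and Fads2, the desaturases, changed by less than 1.5-fold in both genotypes.

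Further genes with lost responses had varied roles. Pdhb, the beta subunit of the E1 component of pyruvate dehydrogenase, had log2 levels of 8.999 and 11.31 in WT and 8.89 and 9.22 in KO, a 4.97-fold change against 1.26-fold. Ifi30, a lysosomal thiol reductase, had 7.72 and 10.20 in WT and 7.53 and 8.003 in KO, 5.56-fold against 1.38-fold. Furin, a proprotein convertase, had 10.27 and 11.46 in WT and 10.19 and 9.98 in KO. In each of these genes, too, WT fructose stood alone. Man2a2, a Golgi mannosidase of N-glycan maturation, was 3.23-fold higher in WT and 1.08-fold higher in KO. Aacs, which activates acetoacetate for lipid synthesis in the cytosol, was 2.87-fold higher in WT, and its KO arrays differed by -0.01. Ank, a membrane protein involved in pyrophosphate export, was 3.44-fold and 1.28-fold higher. Fam171b and Lor, the cornified envelope protein loricrin, were below background in both control arrays and at least 2.89-fold and 3.402-fold higher in WT, against at least 1.03-fold and 1.25-fold in KO. The further lost genes included Gpd2, the mitochondrial glycerol 3-phosphate dehydrogenase (1.15 in WT, 0.04 in KO), Mvd of the mevalonate pathway (1.04 and -0.03), Slc25a44, a mitochondrial carrier of branched-chain amino acids (1.07 and -0.17), and Creb3l3, a membrane-bound liver transcription factor (1.34 and 0.31). In all 31 lost higher genes the genotypes were within 1.5-fold in control medium, close to the 98.4% of all genes. In fructose medium 0 of the 31 were, against 94.8% of all genes, which the class definition largely fixes. With values below background raised to it, 24 of the 31 stayed in the class.

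Reduced responses included the largest fructose changes of known ChREBP targets. Fgf21, a liver-secreted hormone of energy balance, had log2 levels of 4.95 and 9.28 in WT and 4.96 and 5.78 in KO, 20.0-fold against 1.76-fold. Txnip, an arrestin-like inhibitor of thioredoxin and glucose uptake, had 7.601 and 11.48 in WT and 7.04 and 8.30 in KO, 14.7-fold against 2.40-fold. Klf10, a zinc-finger transcription factor, had 6.06 and 9.39 in WT and 5.37 and 5.99 in KO, 10.04-fold against 1.54-fold. In these genes WT fructose was the highest array by far, and KO fructose was above KO control but well below WT fructose. Klf10 lay close to the border between lost and reduced, with a KO change of 0.62 against a limit of 0.585 (log2 of 1.5).

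Il23a, which encodes the p19 subunit of interleukin 23, was below background on both control arrays (3.76 in WT and 4.07 in KO) and reached 9.13 in WT fructose and 6.05 in KO fructose. The change was at least 20.7-fold in WT and at least 2.43-fold in KO, and the difference of effects, taken on the values as given, was -3.396. Prss8, a membrane serine protease of epithelia, had 6.97 and 10.20 in WT and 6.45 and 7.25 in KO. Rgs16, a regulator of G-protein signalling, had 6.82 and 9.97 in WT and 5.77 and 6.62 in KO, and was the 1 gene of the 65 that was at least 2-fold apart in control medium (2.07-fold lower in KO). Angptl8, a secreted regulator of lipoprotein lipase, changed 5.76-fold and 1.76-fold, and Slc25a47, a liver mitochondrial carrier, 10.4-fold and 3.31-fold. Arrdc4, an arrestin-like relative of Txnip, had changes of 2.11 in WT and 0.70 in KO.

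The 2 reversed genes both act in fructose metabolism. Slc2a2, the hepatic glucose and fructose transporter, had log2 levels of 7.66 and 8.70 in WT control and fructose and 7.53 and 6.55 in KO. Tkfc, which phosphorylates glyceraldehyde in fructolysis, had 8.92 and 10.20 in WT and 8.80 and 8.11 in KO. In both genes the control arrays were close, WT fructose was the highest array and KO fructose the lowest. The WT changes were 2.05-fold and 2.42-fold upward, the KO changes 1.97-fold and 1.61-fold downward, and the genotypes ended 4.44-fold and 4.24-fold apart. Mttp, the microsomal triglyceride transfer protein of lipoprotein assembly, had the same pattern under 2-fold, with 8.79 and 9.52 in WT and 8.85 and 8.08 in KO. Pklr, liver pyruvate kinase, changed by -0.32 in WT and -1.05 in KO. Of the 8 detected members of the fructolysis list, Slc2a2 and Tkfc were at or under -1 (0.588% of all genes) and 0 were at or above 1 (0.443%). Khk had changes of 0.80 and 0.58, and Gckr, the glucokinase regulator, of 1.08 and 0.36.

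**Figure D2:**
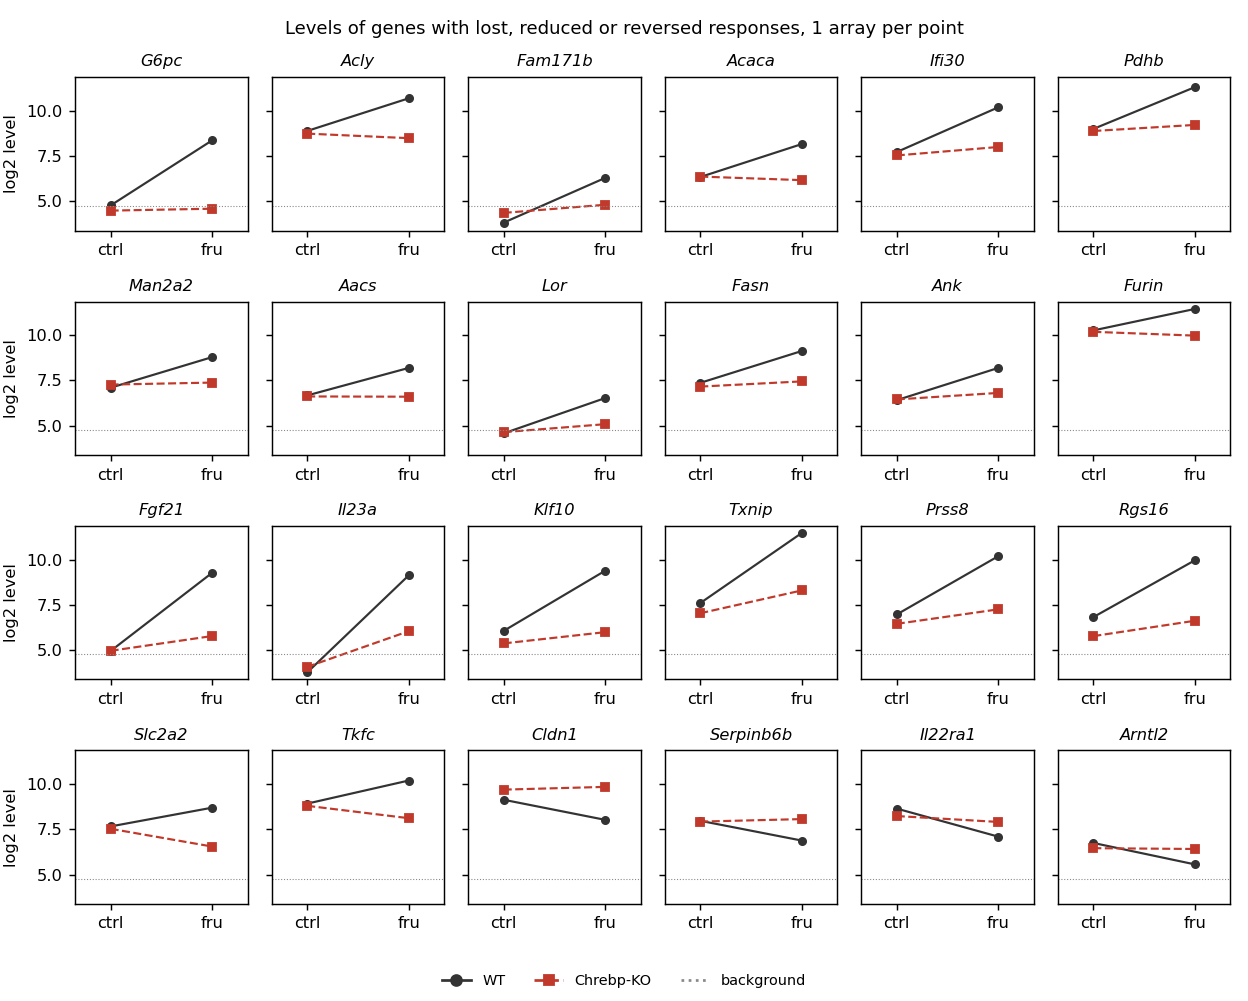
Log2 level on each of the 4 arrays (control, fructose; 1 array per point) for genes with lost, reduced or reversed responses; circles and solid lines are WT, squares and dashed lines Chrebp-KO, the dotted line the background of 4.764. In the upper 3 rows WT fructose stands above the other arrays. The lines of Slc2a2 and Tkfc start close together and move apart, upward in WT and downward in KO. In the 4 lower-class genes at the end WT fructose is the lowest array.

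The ChREBP target list had 27 detected members of 30. Its median change was 1.04 in WT and 0.16 in KO, with a median difference of effects of -0.89. Of the 27 genes, 13 were at or under -1 (0.588% of all genes were) and 0 at or above 1 (0.443%), and 26 lay below 0 (45.0%). By class, 4 were lost, 6 reduced, 2 reversed, 3 in between and 0 kept. Over all genes compared, 0.281% were lost higher, 0.226% reduced higher, 0.0181% reversed higher and 1.12% kept higher. The exception to the direction was Gpam, a glycerol 3-phosphate acyltransferase, at -1.11 in WT and -0.59 in KO. The list was written from textbook knowledge with earlier results of these data known, and its members are described and not tested.

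**Figure D3:**
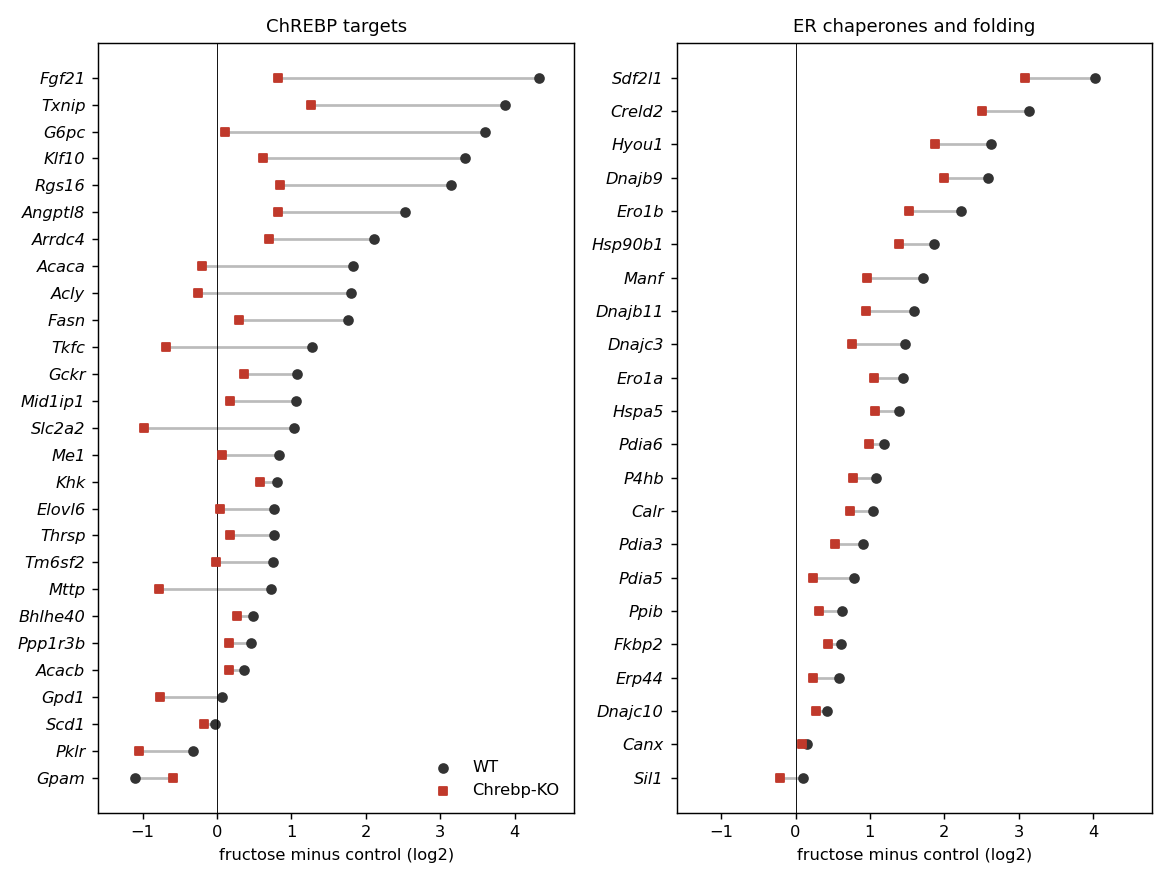
Change with fructose (log2) in WT (circles) and Chrebp-KO (squares) for every detected member of the ChREBP target list (27 genes) and of the endoplasmic reticulum chaperone list (22 genes), ordered by the WT change. KO changes of the ChREBP targets lie between -1.05 (Pklr) and 1.26 (Txnip) where WT changes reach 4.32 (Fgf21), and all 22 chaperones have a lower value in KO than in WT.

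Promoter sequences from RefSeq (GRCm38.p6, 250 bases before to 50 after each start site) were searched on both strands for the E-box CACGTG and for a loose carbohydrate response element written as CANGNG, any 5 bases and CNCNTG. The E-box was found in 7.15% of all 32851 promoters of the table and 10.1% of those of the genes compared. Among lost higher genes it was in 1 of 28 promoters (Ifi30), and among reduced higher genes in 4 of 16 (Fgf21, Arrdc4, Derl3 and Kcnk5). It was in 11 of 116 promoters of kept higher genes (9.48%), 28 of 162 of in between higher genes (17.3%) and 3 of 24 of the ChREBP target list (12.5%). The loose element was in 0.557% of all promoters and in 0 of the promoters of lost, reduced and kept higher genes. It was in 3 of 162 (1.85%) of those of in between higher genes and in 1 of 24 of the ChREBP target list, that of Pklr. The searched promoters belonged to 24 of the 31 lost, 15 of the 25 reduced and 93 of the 124 kept higher genes, and to 21 of the 27 detected ChREBP targets. Some genes had more than 1 promoter, and genes without a promoter in the table were not searched. A match is a description of letters only, and enhancers outside these 300 bases were not searched. The promoters of Fgf21 (chr7:45615441-45615740, minus strand), Arrdc4 (chr7:68749189-68749488, minus strand) and Pklr (chr3:89136373-89136672, plus strand) are shown because they are ChREBP targets with a match and with opposite changes in WT, upward for Fgf21 and Arrdc4 and slightly downward for Pklr. Capitals mark the E-box in Fgf21 and Arrdc4, the loose element in Pklr, and also, in Fgf21, a CEBP-ATF element (TGATGCAA on the other strand).
Fgf21: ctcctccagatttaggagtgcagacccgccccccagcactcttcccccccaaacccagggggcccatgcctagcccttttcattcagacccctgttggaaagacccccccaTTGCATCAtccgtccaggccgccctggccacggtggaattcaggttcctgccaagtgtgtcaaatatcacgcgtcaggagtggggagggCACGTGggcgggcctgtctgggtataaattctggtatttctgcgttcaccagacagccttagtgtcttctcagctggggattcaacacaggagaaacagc
Arrdc4: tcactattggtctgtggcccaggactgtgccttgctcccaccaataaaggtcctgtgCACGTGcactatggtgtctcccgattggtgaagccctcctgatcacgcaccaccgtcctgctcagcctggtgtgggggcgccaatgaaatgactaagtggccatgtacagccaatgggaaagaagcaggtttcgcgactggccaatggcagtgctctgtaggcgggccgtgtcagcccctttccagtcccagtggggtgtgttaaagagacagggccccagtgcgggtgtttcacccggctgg
Pklr: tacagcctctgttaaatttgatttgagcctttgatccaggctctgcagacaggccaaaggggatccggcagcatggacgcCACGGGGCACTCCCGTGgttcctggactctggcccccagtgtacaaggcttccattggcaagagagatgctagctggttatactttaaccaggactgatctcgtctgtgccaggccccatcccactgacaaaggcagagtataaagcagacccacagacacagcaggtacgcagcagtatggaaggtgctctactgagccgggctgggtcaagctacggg

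The E-box began at position -50 in Fgf21 and -193 in Arrdc4, counted from the start site, and the loose element at -170 in Pklr. Fgf21 and Arrdc4 had reduced responses, and Pklr was lower with fructose in both genotypes.

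The kept higher genes with the largest changes in both genotypes were Nos2, Sdf2l1, Il1f9, Ddit3 and Adm. Ddit3 (CHOP), a transcription factor of the stress response, had log2 levels of 7.56 and 10.75 in WT and 7.66 and 10.36 in KO, 9.14-fold against 6.48-fold. Sdf2l1, a component of an endoplasmic reticulum (ER) chaperone complex, had 6.06 and 10.10 in WT and 6.58 and 9.67 in KO, 16.4-fold against 8.48-fold. Adm, the adrenomedullin gene, had 6.82 and 9.50 in WT and 6.86 and 9.53 in KO, and its difference of effects was -0.01. In these 3 genes both fructose arrays were high and both control arrays low. Nos2, inducible nitric oxide synthase, was 13.6-fold higher in WT and at least 8.45-fold in KO. Atf3, a stress-induced transcription factor, was 7.20-fold and 4.88-fold higher. Tat, tyrosine aminotransferase, was 4.65-fold and 4.02-fold higher, and Cyp2b10, a drug-metabolising cytochrome P450 with close relatives on the array, 8.04-fold and 5.12-fold. Nupr1, a stress-induced nuclear protein, and Il1f9, interleukin 36 gamma, had the larger change in KO, 7.03-fold against 4.11-fold and 12.6-fold against 6.95-fold. Among the 124 kept higher genes the median change was 1.57 in WT and 1.36 in KO, and 97 were within 1.5-fold between the genotypes in fructose medium, a lower share than the 94.8% of all genes.

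The class of kept lower responses requires changes within 2-fold of each other. Hjv, the hemojuvelin gene of iron sensing, had log2 levels of 7.65 and 5.49 in WT and 7.68 and 5.66 in KO. Csn3, the kappa-casein gene, had 7.62 and 5.81 in WT and 7.75 and 5.996 in KO. Xrcc5, the Ku80 subunit of DNA repair, had 7.48 and 5.85 in WT and 7.73 and 6.13 in KO. In all 3 genes both fructose arrays were low and both control arrays high. Vil1, the actin-bundling protein villin, was at least 3.04-fold lower in WT and 4.24-fold in KO. The other named genes of this class, Ankrd23, Spon2, Tmem71, Uap1l1, Slc44a3 and Cabcoco1, were between 3.27-fold and 9.63-fold lower in WT and between 3.06-fold and 5.54-fold lower in KO. The class of 101 genes had median changes of -1.41 and -1.23.

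ER chaperones kept their direction but had a smaller change in KO throughout. The 22 detected members had a median change of 1.29 in WT and 0.86 in KO. The difference of effects was below 0 in 22 of 22 (45.0% of all genes), with a median of -0.39. Past 2-fold were 0 members (1.03% of all genes). At least 2-fold higher were 14 members in WT (3.03% of all genes) and 8 in KO (1.64%). Hspa5 (BiP), the main ER chaperone, had changes of 1.39 and 1.07, Hyou1 of 2.63 and 1.87, Hsp90b1 of 1.86 and 1.39, and Creld2 of 3.14 and 2.51. When the KO changes of all genes were multiplied by 1.29, the ratio of the SDs, the list's median difference became -0.09, whereas that of the ChREBP targets was -1.06. This scaling was chosen after the data were seen.

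ER-associated degradation, which returns misfolded proteins to the cytosol, had 18 detected members with median changes of 0.60 in WT and 0.33 in KO. Derl3, a channel component of this pathway, had the largest fructose change of any gene compared, from 3.996 to 10.42 in WT and from 3.99 to 9.16 in KO. Both control arrays were below background. Its difference of effects was -1.25 and -1.26 with values raised to the background. Scaling the KO changes as above gave 0.27 from the values as given, which rests on control levels below background. Sel1l, the adaptor of the Hrd1 ubiquitin ligase, had 8.05 and 10.38 in WT and 8.13 and 9.32 in KO, a difference of effects of -1.14. Among the sensors and factors of the unfolded protein response, Wfs1, an ER membrane protein, had changes of 2.11 and 0.68, Ern1 (IRE1) of 1.41 and 0.62 and Atf6 of 1.04 and 0.52, while Xbp1 had 0.18 and 0.26. The 12 detected members of that list had a median difference of effects of -0.10.

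The integrated stress response had median changes of 0.64 in WT and 0.59 in KO over 17 detected members, with a median difference of 0.03. Chac1, a glutathione-degrading enzyme, was the 1 member past 2-fold (1.03% of all genes), at 2.21 in WT and 1.13 in KO. Ppp1r15a (GADD34), a phosphatase subunit, had 2.11 and 1.39, and Trib3, a pseudokinase, 1.34 and 0.93. Hypoxia targets had median changes of 0.38 and 0.62 over 17 members. Of the 17, 0 were lost, reduced or reversed, which is near the shares of all genes. These were 0.281% lost higher, 0.0905% lost lower, 0.226% reduced higher, 0.127% reduced lower and 0.0181% reversed higher. The 5 kept members were all higher (1.12% of all genes were kept higher): Adm, Egln3, a prolyl hydroxylase (1.85 and 1.87), Vegfa, an endothelial growth factor (1.54 and 1.352), Pfkfb3, a regulator of glycolysis (1.91 and 1.596), and P4ha1, a collagen hydroxylase (1.197 and 1.26).

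The ER stress element, written as CCAAT, any 9 bases and CCACG, was in 0.119% of all promoters and 0.164% of those of the genes compared. It was found in 5 of 116 promoters of kept higher genes (Hspa5, Hsp90b1, Ero1b, Creld2 and Syvn1), in 8 of 22 promoters of the ER chaperone list (36.4%), in 0 of 28 of lost higher genes and in 1 of 16 of reduced higher genes, that of Derl3. The 22 promoters of the ER chaperone list belonged to 19 of its 22 detected genes. The CEBP-ATF element TGATGCAA was in 0.895% of all promoters, 3 of 16 of the reduced higher genes (Fgf21, Angptl8 and Chac1), 1 of 28 of the lost higher genes (G6pc) and 3 of 116 of the kept higher genes (Atf3, Nupr1 and Herpud1). Of the 4 motifs, the E-box can also serve as either part of the loose carbohydrate response element. The promoters of Hspa5 (chr2:34771840-34772139, plus strand), Creld2 (chr15:88819396-88819695, plus strand) and Derl3 (chr10:75893148-75893447, plus strand) are shown with the ER stress element in capitals, to set the letters of kept genes beside those of Derl3, whose promoter also holds an E-box in capitals.
Hspa5: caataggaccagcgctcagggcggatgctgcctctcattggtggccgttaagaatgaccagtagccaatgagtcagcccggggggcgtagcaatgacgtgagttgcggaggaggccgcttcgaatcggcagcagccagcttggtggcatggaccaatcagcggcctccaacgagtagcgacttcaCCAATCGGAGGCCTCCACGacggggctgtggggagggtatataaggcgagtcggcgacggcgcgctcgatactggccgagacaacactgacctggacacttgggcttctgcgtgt
Creld2: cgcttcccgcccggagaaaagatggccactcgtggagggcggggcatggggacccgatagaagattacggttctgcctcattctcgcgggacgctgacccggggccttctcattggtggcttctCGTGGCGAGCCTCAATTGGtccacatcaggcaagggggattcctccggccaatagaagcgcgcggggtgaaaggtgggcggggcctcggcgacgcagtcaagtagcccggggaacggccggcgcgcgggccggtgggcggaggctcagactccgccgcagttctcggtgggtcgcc
Derl3: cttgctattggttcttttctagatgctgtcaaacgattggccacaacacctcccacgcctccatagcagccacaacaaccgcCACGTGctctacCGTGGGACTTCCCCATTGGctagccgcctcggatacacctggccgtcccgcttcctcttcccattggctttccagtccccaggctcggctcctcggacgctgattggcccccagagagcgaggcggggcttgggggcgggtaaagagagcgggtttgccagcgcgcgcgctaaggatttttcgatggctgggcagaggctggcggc

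Hspa5 and Creld2 were both kept, and the element began at -65 and -126. Fgf21, shown above, has an E-box and a CEBP-ATF element but no match to the ER stress element.

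Gained responses were all toward higher levels in KO. Foxn1, a transcription factor of thymic and skin epithelium, had log2 levels of 4.96 and 4.62 in WT control and fructose and 5.14 and 6.95 in KO. Krtap4-16, a keratin-associated protein of a family with similar sequences, had 5.12 and 5.37 in WT and 4.96 and 7.10 in KO. Kitl, the ligand of the receptor Kit, had 5.66 and 5.51 in WT and 5.80 and 7.08 in KO. In these genes KO fructose was the single high array. Avpr1a, a vasopressin receptor, was 2.70-fold higher in KO and 1.05-fold in WT. Duox2, a hydrogen peroxide-producing oxidase, was 2.45-fold higher in KO, and Angpt2, a ligand of the endothelial receptor Tie2, 2.55-fold. The remaining gained genes were Mug-ps1, Ntn4, Olfml2b, Npy and Pde7b, with KO changes between 1.02 and 1.25 (log2) and WT changes between -0.39 and 0.04. All 11 kept the class with values raised to the background. Muc13, a membrane mucin, was higher in both genotypes, at least 4.94-fold in WT and 11.8-fold in KO. Control levels of the 11 gained genes lay between 4.96 and 7.08, against a background of 4.764. Those of Foxn1 and Krtap4-16 were close to background, as was that of Pde7b in KO (5.05), and the others lay higher.

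**Figure D4:**
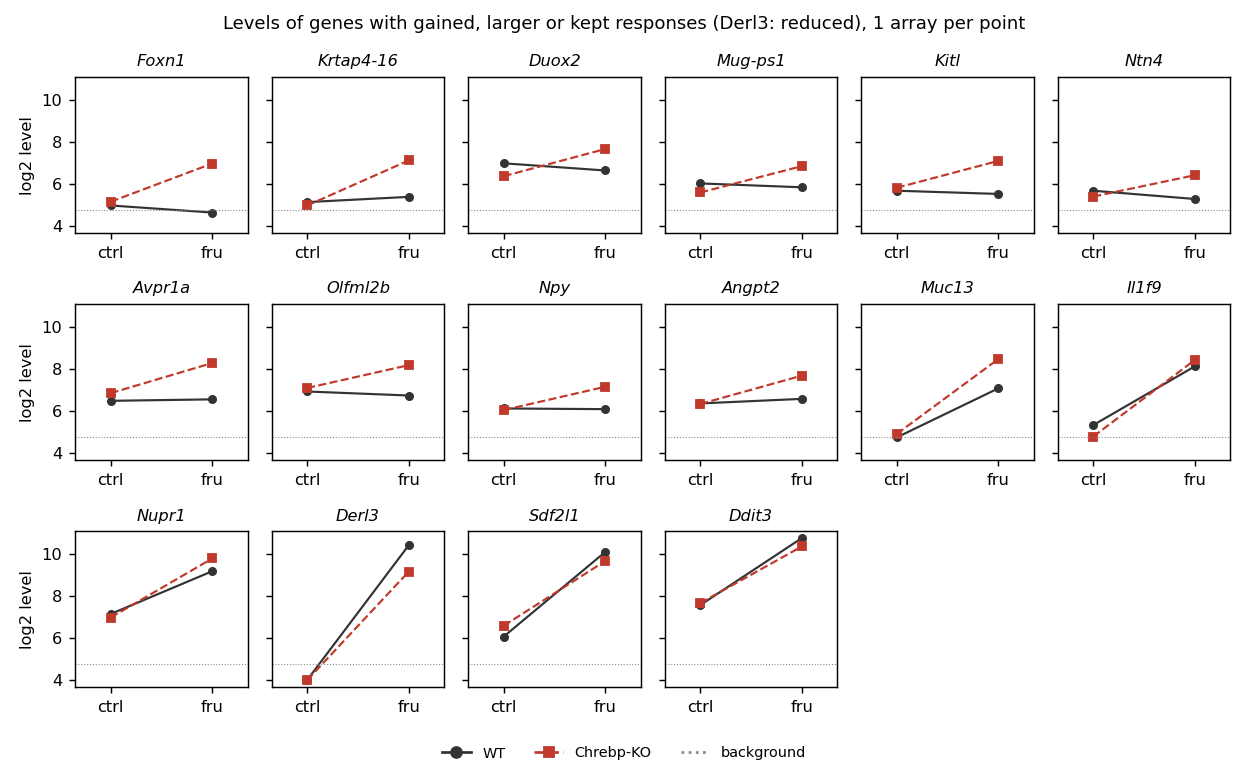
Log2 level on each of the 4 arrays (control, fructose; 1 array per point) for 10 gained genes, Muc13 with a larger change in KO, the kept genes Il1f9, Nupr1, Sdf2l1 and Ddit3, and Derl3 (reduced); circles and solid lines are WT, squares and dashed lines Chrebp-KO, the dotted line the background. For the gained genes KO fructose stands above 3 similar arrays, and for the kept genes both fructose points lie above both control points.

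Lower responses that were lost included Cldn1, a tight junction claudin, with log2 levels of 9.13 and 8.02 in WT and 9.69 and 9.85 in KO. Il22ra1, a subunit of the interleukin 22 receptor, had 8.64 and 7.09 in WT and 8.23 and 7.91 in KO. Rarb, retinoic acid receptor beta, had 6.84 and 5.35 in WT and 6.71 and 6.31 in KO. In these genes WT fructose was the lowest array. Serpinb6b, Arntl2, a clock-type transcription factor, and Nat8f4 were between 2.13-fold and 2.27-fold lower in WT and within 1.10-fold in KO; Serpinb6b and Nat8f4 belong to families with similar sequences. The class held 10 genes, of which 6 stayed in it with values raised to the background. Among reduced lower responses, Smpd3, a neutral sphingomyelinase, had 8.25 and 5.72 in WT and 7.97 and 7.05 in KO, and Ifi27l2b, an interferon-inducible gene with close relatives, 10.33 and 7.06 in WT and 10.10 and 8.42 in KO. Osbpl3, an oxysterol-binding protein, had changes of -3.45 and -1.91.

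Epithelial genes went both ways. Of 21 detected junction genes, 0 were at or under -1 (0.588% of all genes) and 3 at or above 1 (0.443%), Cldn4, Cldn1 and Cdh17, with a list median of -0.53 in WT and -0.29 in KO. Cdh17 was below background in WT fructose, and its difference of effects of 1.02 was 0.42 with values raised to the background, under the threshold. Cldn4, another claudin, had log2 levels of 9.82 and 8.95 in WT and 10.12 and 10.92 in KO, so that WT fructose was the lowest and KO fructose the highest array. Of 17 detected squamous epithelial genes, Prss8 and Aloxe3, a lipoxygenase-type enzyme of the skin barrier, were at or under -1 (0.588% of all genes). Foxn1, Ivl (involucrin), Sprr1b, both cornified envelope proteins, and Tgm1, the transglutaminase that crosslinks them, were at or above 1 (0.443%). Sprr1b was below background on both control arrays, and its difference of 1.32 was 0.47 with raised values, under the threshold. Ivl had 5.90 and 5.28 in WT and 6.28 and 7.18 in KO. Lor, the cornified envelope protein named above, was not on this list. Its difference of effects was -1.51, and -1.45 with raised values. Cldn3 and Cldn4 are also cholangiocyte markers. The summed linear level of that marker list was 3969 and 2960 on the WT control and fructose arrays and 3770 and 4898 on the KO arrays, while Krt7, Krt19 and Epcam stayed below background on all 4. Cldn3, Cldn4 and Sox9 dominated this sum, so it is not separate from the values of the claudins. Sox9 had log2 levels of 9.82 and 10.30 in WT and 9.39 and 10.21 in KO.

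Interferon-stimulated genes had a less negative change in KO, from lower levels in control medium. Their 28 detected members had median changes of -0.39 in WT and -0.27 in KO and a median difference of effects of 0.24, with 24 above 0 and 4 below 0 (45.0% of all genes). In control medium the median difference between KO and WT was -0.49 for this list. Oas3, an antiviral oligoadenylate synthetase, had changes of -1.61 and -0.69, and Ifit3b of -1.08 and 0.05, the latter with both KO arrays near background. Kupffer and macrophage markers had a median difference of effects of -0.04, and a median difference between KO and WT of -0.27 in control medium, and for endothelial markers this difference was -0.43. The part of these cells in the interferon values was not tested. YAP and TEAD targets had medians of -0.15 and 0.10 over 19 detected members. Ankrd1, a muscle and injury response protein (-0.42 and 0.63), and Nuak2, a kinase, were at or above 1 in the difference of effects (0.443% of all genes). At or under -1 were 0 (0.588%). Nuak2 was below background on both fructose arrays, and its difference of 1.0032 was 0.49 with raised values, under the threshold. Control genes, housekeeping genes in common use, had medians of -0.04 in both genotypes and a median difference of 0.04.

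**Figure D5:**
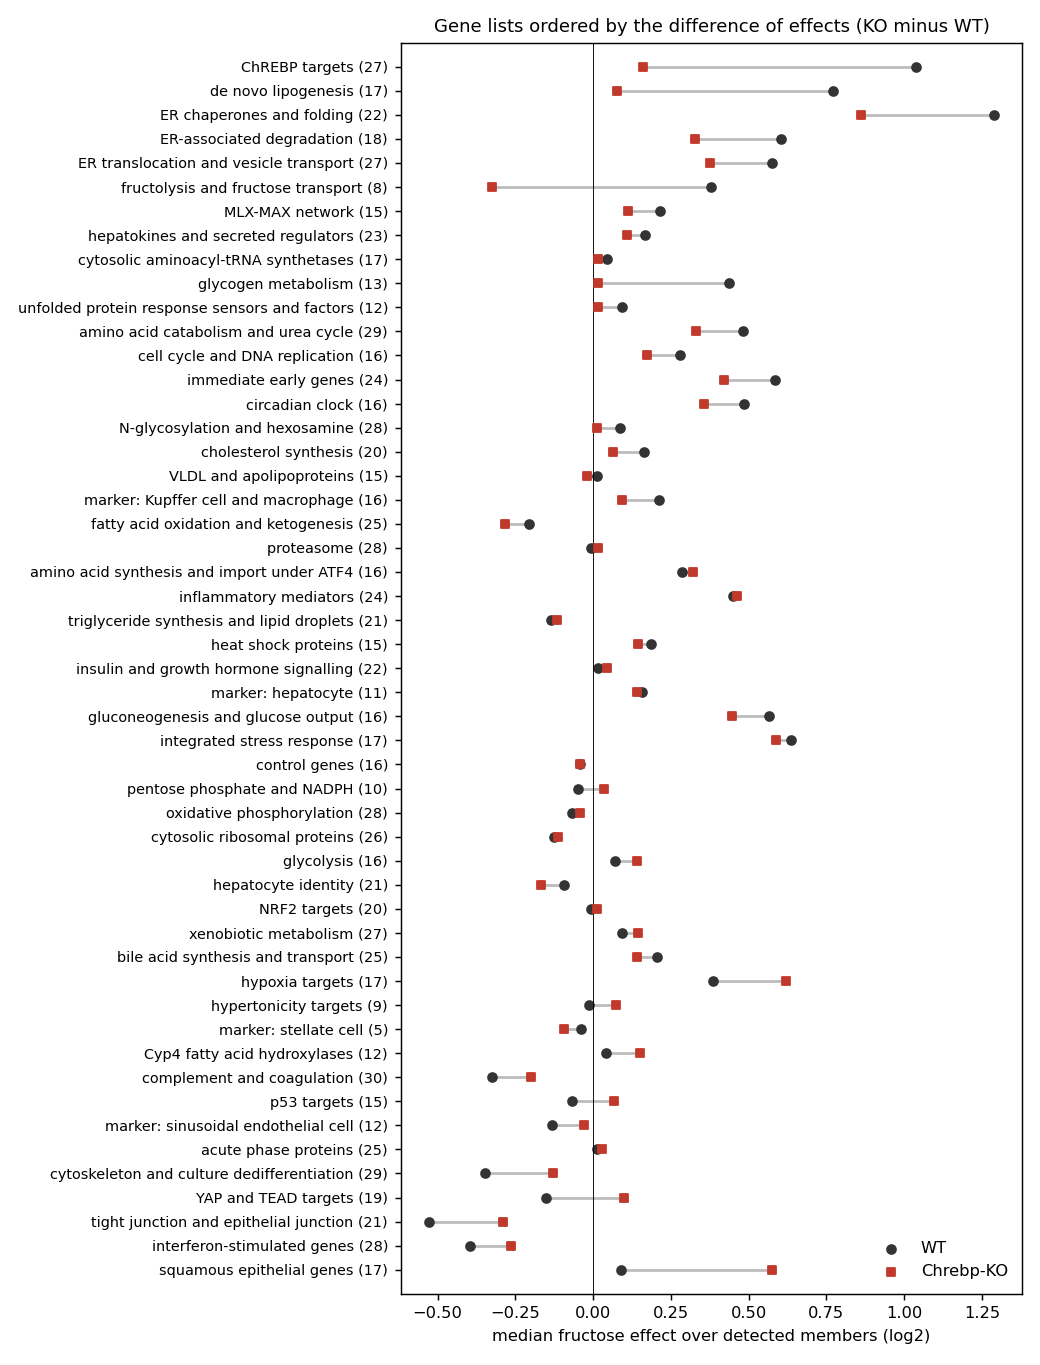
Median change with fructose (log2) in WT (circles) and Chrebp-KO (squares) for each of the 51 gene lists with at least 5 detected members (number of members in brackets), ordered by the median difference of effects. ChREBP targets and lipogenesis genes lie at the top with KO medians of 0.16 and 0.08, ER chaperones follow at 1.29 and 0.86, and squamous epithelial genes lie at the bottom at 0.09 and 0.58.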

How the data were processed

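Total RNA of 4 hepatocyte samples was hybridised to 1 array each, from 400 ng of RNA per the labels. The authors deposited log2 levels, 1 for each probe set and array, after RMA (robust multi-array averaging) in R 3.4.0, as the submitters' processing notes list them. RMA makes the distributions of the arrays alike, so a shift shared by all genes cannot be seen, and neither the array's annotation version nor its genome build was stated in the sources. The table holds 41345 probe sets, of which 23521 carry 1 gene symbol, 1814 several, and 16010 are unnamed here. Names were updated by Entrez number through a RefSeq table of GRCm38.p6 (23328 matched), which gave 22180 genes, each the mean of its probe sets. Genes of families with similar sequences can share probes.

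Background was the 95th percentile of the mean level of 1105 olfactory receptor genes, 4.764. A fold against an array below it is given as "at least", from the background, and no fold is given where both arrays are below it. Genes were counted by size, at 2-fold, with no p-value, since 1 array per group leaves no error estimate, and the number of arrays sets the precision. Effects of WT and KO share no arrays, but each shares its 2 arrays with the difference of effects.

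Named genes were Mlxipl, then those with the largest difference of effects in each class (lost higher, lost lower, reduced, gained, reversed, larger), and for kept genes the largest of the smaller effect. They had to stay in their class with values raised to the background, and predicted genes, small RNAs and receptor families were left out. The 4 members with the largest difference of each described list followed, and other members were chosen after their values were seen. The members, the 53 lists and the classes were chosen with earlier results of these data known. Alternatives were median centring, repeated quantile normalization, loess (span 0.3), filters, raised values, the brightest probe set, other thresholds, a lost class defined by the ratio of the KO to the WT change, and for lists the mean and leaving out 1 member. Multiplying KO effects by the ratio of the SDs was chosen later, with the values in view (added after seeing the data). The class assignment was tested on simulated data with levels well above background and planted changes far from the class limits. It therefore did not cover dim genes or genes near a limit. Python 3.11.15, numpy 2.4.6, pandas 2.3.3, statsmodels 0.14.6 and matplotlib 3.10.9 were used.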

Additional observations from a re-analysis of the deposited data

Results flagged for a closer look

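In 5 named genes the fructose changes of the genotypes ran in opposite directions, each by at least 1.5-fold, and the difference was not tested because each group has 1 array. For Slc2a2, the glucose and fructose transporter, the difference of effects (KO minus WT) was -2.02. For Tkfc, triokinase, it was -1.96, and for Mttp, the triglyceride transfer protein, -1.50. It was 1.66 for Cldn4, a claudin, and 1.52 for Ivl, involucrin. The 4 array values of each of these 5 genes are given with the comparison above. Itga2, which the naming rule did not reach, met the same limits. It changed by -0.78 in WT and 0.65 in KO, a difference of effects of 1.43.

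Probe sets that the comparison did not use also held differences of this size. Among the genes compared, 0.588% were at or under -1 and 0.443% at or above 1. Of 1814 probe sets with several genes, 851 were above background on at least 1 array. Of these 851, 3 were at or under -1 and 2 at or above 1, lower shares than among the genes. Of 16010 probe sets with no gene named here, 4987 were above background. Of these 4987, 125 were at or under -1 and 140 at or above 1, with a range from -2.69 to 3.65. Both shares were larger than among the genes compared, and the reason was not tested.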

How the results depend on the processing

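No paired analysis was possible because each group has 1 array, and for the same reason no array could be left out. The counts depended mainly on the threshold. At 1.5-fold and 3-fold, the genes on the lower side of the difference of effects numbered 287 and 16 in place of 65, and on the higher side 316 and 6 in place of 49. At 1.5-fold and 3-fold the classes held, in this order, 93 and 6 lost higher, 90 and 0 lost lower, 110 and 8 reduced higher, 93 and 2 reduced lower, 406 and 37 kept higher, 439 and 13 kept lower, 402 and 52 in between higher, 545 and 42 in between lower, 4 and 0 reversed higher, 9 and 0 larger higher, and 23 and 2 gained higher genes. At 1.5-fold 7 reversed lower, 2 larger lower and 16 gained lower genes appeared. Lost lower responses numbered 6 with the stricter filter and with raised values. With KO effects scaled, 16 reduced higher, 3 reduced lower, 193 kept higher, 175 kept lower, 97 in between higher, 6 larger higher, 1 larger lower and 3 gained lower genes were counted, and 21 of the 31 lost higher genes kept their class. The brightest probe set gave 1 gained lower gene.

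The ChREBP target median of -0.89 became -1.15 with the stricter filter, -1.35 with the brightest probe set and -1.31 as a mean, and the ER chaperone median -0.087 with scaling. Directions turned for Derl3 (0.27, scaling, with both control arrays below background), the MLX-MAX network (0.0048 as a mean, 0.033 with scaling) and endothelial markers (-0.011, stricter filter). The cause was not tested. Of the other values, 118 class counts, 16 counts of the difference of effects, 1353 gene values and 498 list medians moved by less than the limits used, and 92 gene values moved. Genes near background can have compressed changes, so differences there can be too small. Differences that rest on levels below background can also be too large. Of the genes not above background on every array, 2.77% passed 2-fold, against 0.807% of those above it on every array. With values raised to the background, 52 of the 65 genes on the lower side and 38 of the 49 on the higher side still passed.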

Other observations

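Genes with lost responses included neighbours on the chromosome. In the order of protein-coding genes of the RefSeq table, which was used for order only, 61 genes at or under -1 in the difference of effects could be placed, and 5 of them formed 2 runs of direct neighbours. No such run was found among the 44 placed genes at or above 1.

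The longer run held Man2a2, Fes and Furin, a Golgi mannosidase, a tyrosine kinase and a proprotein convertase. Man2a2 had log2 levels of 7.10 and 8.79 in WT control and fructose and 7.27 and 7.38 in KO. Fes had 5.17 and 6.40 in WT and 4.94 and 4.86 in KO. Furin had 10.27 and 11.46 in WT and 10.19 and 9.98 in KO. In all 3 genes WT fructose was the high array and the other 3 lay close together, and the differences of effects were -1.58, -1.31 and -1.40. On one side Unc45a, the second gene out, had -0.28, and on the other Blm, a DNA helicase, had -0.32 and Crtc3, a transcriptional coactivator, -0.11. The other run was Acly (-2.06) and Ttc25 (-1.32), the latter below background on all arrays except WT fructose (5.32). With values raised to the background the difference for Ttc25 was -0.56, under the threshold, so this run depends on levels that were not measurable and the longer run does not. Their neighbours Klhl11 and Cnp had -0.24 and 0.17. This pattern was noticed after the values were seen, and whether probes or transcripts of neighbours overlap was not tested.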
